A study of Mus musculus with 12 samples.

Results

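Antigen presentation on MHC class II was examined through 7 of the 16920 genes in the count tables, chosen by name: Ciita, the master regulator of class II transcription, H2-Aa, H2-Ab1 and H2-Eb1, which encode chains of the class II molecules, Cd74, which encodes the invariant chain, and H2-DMa and H2-DMb1, which encode the peptide exchange factor H2-DM. All 7 passed the filter on low counts. The cells were mouse peritoneal macrophages, elicited by an injected irritant and cultured overnight, from young adult wild-type mice (WT) or mice labelled Ythdf1-/- (KO) on a C57BL/6 background. PBS or lipopolysaccharide (LPS, 1 µg/mL) was given for 6 h, and 3 libraries were made in each of the 4 groups, described as independent biological samples. The deletion is a constitutive one, carried by all cells of the mouse and not by macrophages alone.

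The knockout label could not be checked from these counts, since the targeting scheme removes a single short exon of Ythdf1 (gene 228994) and the tables sum reads over whole genes. Ythdf1 mRNA was at 41.9 to 45.0 CPM in WT PBS libraries and at 55.4 to 58.1 CPM in KO-labelled PBS libraries (CPM, the normalised read count that edgeR gives). With LPS it was at 194 to 212 CPM in WT and at 192 to 205 CPM in KO-labelled libraries. Ythdf1 was thus higher under the KO label with PBS (0.40, adjusted p = 0.000133) and at -0.03 with LPS (adjusted p = 0.724), and its LPS response differed between the labels by -0.42 (adjusted p = 0.00177). The comparisons between genotypes rest on the labels. Total counts lay between 21546274 and 22017005 per library. Replicate 1 of WT LPS stood apart from replicates 2 and 3 (mean chi-square per gene 32.8 and 25.5, against 3.09 between replicates 2 and 3), so the fold changes of the 7 genes that use the WT LPS group are also given without it, and for the related genes the calls that changed are named. The KO LPS replicates were at 5.84 to 16.7 and both PBS groups at 2.77 to 4.69. The 8 general macrophage markers were above 3 counts, the floor used here, in every library, with summed levels of 17200 to 19900 CPM.

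Class II molecules are made of an alpha and a beta chain that pair in the endoplasmic reticulum around the invariant chain. The invariant chain guides them to endosomes, where proteases trim it to a short peptide, CLIP, that H2-DM exchanges for peptides from ingested proteins. Transcription of these genes depends on CIITA, a protein that does not bind DNA itself but docks onto a complex of RFX, CREB and NF-Y at their promoters. Macrophages hold little class II at rest, and interferon-gamma is the classical inducer of Ciita in them. Mice of the C57BL/6 strain carry a defective H2-Ea gene, so that the beta chain of H2-Eb1 has no partner and I-E does not reach the surface. H2-Ea (listed as H2-Ea-ps) held 0 or 1 count in every library.

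The H2-Aa (gene 14960, minus strand), H2-Ab1 (14961), H2-Eb1 (14969), H2-DMa (14998) and H2-DMb1 (14999) genes lie together on chromosome 17, in build GRCm38.p6 at 34282744 to 34287823, 34263227 to 34269418, 34305867 to 34316674, 34119693 to 34139101 and 34153191 to 34160229. Ciita (12265) lies on chromosome 16 at 10480014 to 10531064. RefSeq promoter windows of that build, 250 bases before to 50 bases after a start, were held for 4 of the 7 genes, with 1 window each for H2-Aa, H2-Eb1 and H2-DMb1 and 2 for H2-DMa. Stretches of 3 of them are shown because they carry, within a short distance, letters like those of the X box (bound by RFX and CREB) and the Y box (bound by NF-Y) that define class II promoters, on the genes whose mRNA is described next. Each is written 5′ to 3′ on the gene's own strand, and capitals mark the X-type letters CTNGNAACT and then the Y-type letters GATTGG.
H2-Aa, chr17:34287824-34287953, minus strand: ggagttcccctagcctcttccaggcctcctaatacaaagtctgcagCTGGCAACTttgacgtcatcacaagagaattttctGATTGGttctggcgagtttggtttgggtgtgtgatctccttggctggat
H2-Eb1, chr17:34305737-34305866, plus strand: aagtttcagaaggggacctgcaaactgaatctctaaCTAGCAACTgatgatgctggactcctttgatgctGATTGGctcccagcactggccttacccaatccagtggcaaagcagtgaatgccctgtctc
H2-DMb1, X-type stretch, chr17:34153088-34153111, plus strand: gtttacCTAGTAACTgatgatgct
H2-DMb1, Y-type stretch, chr17:34153120-34153143, plus strand: tcactcagtGATTGGtctgacctg

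The X-type letters began 84, 94 and 97 bases before the start of H2-Aa, H2-Eb1 and H2-DMb1, and 26, 25 and 26 bases separated them from the Y-type letters. Both strands were searched, and the marked X-type and Y-type stretches did not overlap. The X-type letters were chosen after these windows had been read, and the gap allowed below, 15 to 40 bases, spans their spacings. That these genes are among the matches was therefore fixed in advance and is no test. Of all 32851 promoter windows of this length in the table, 4.1% held CTNGNAACT and 16.1% held GATTGG. Both in this order on 1 strand, with 15 to 40 bases between, were found in 9 windows (0.0274%), of which these genes gave 3. Neither H2-DMa window held the X-type letters, and 1 of them held the Y-type letters. A match describes these letters only.

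To place the genes on a common scale, levels were divided by the length of each gene's longest coding transcript. In WT PBS libraries Cd74 was the most abundant at 317 ± 18.8 CPM per kb (SD, n = 3), followed by H2-Aa at 107 ± 8.59, H2-Ab1 at 81.9 ± 1.46 and H2-Eb1 at 37.5 ± 1.44 CPM per kb. The H2-DM genes were lower, with H2-DMb1 at 22.1 ± 0.358 and H2-DMa at 11.6 ± 0.177 CPM per kb, and Ciita was lowest at 0.713 ± 0.106 CPM per kb. Each neighbour in this order was apart from the next in all 3 libraries, and KO-labelled PBS libraries had the same order. With LPS, H2-Aa and H2-Ab1 were no longer separate, at 158 ± 11.0 and 151 ± 0.809 CPM per kb in WT and at 112 ± 9.79 and 126 ± 9.74 CPM per kb in KO-labelled libraries. All other neighbours stayed apart. Ciita also rested on few counts, at 105 to 140 per library in WT PBS. It held only 16 to 28 in WT LPS and 19 to 24 in KO-labelled LPS libraries.

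**Figure D1:**
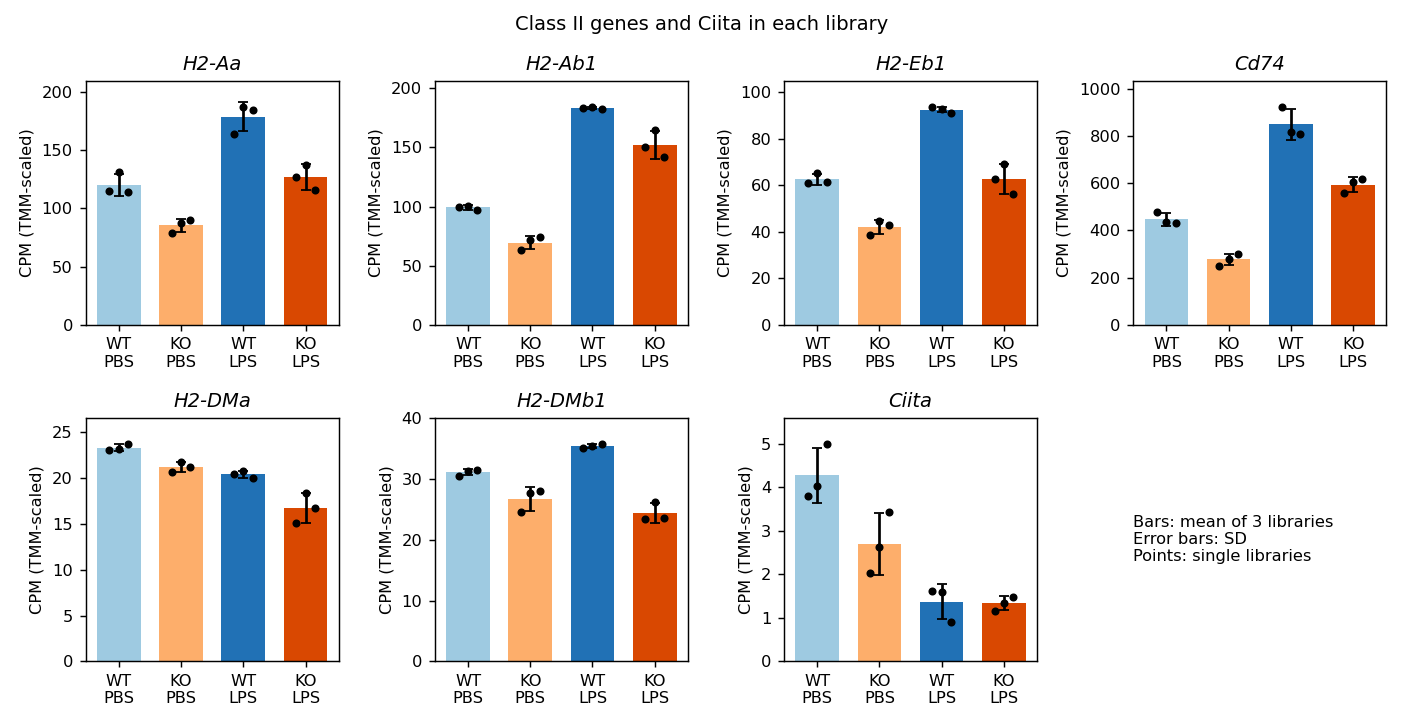
Level of each of the 7 genes in CPM (TMM-scaled), with bars for the mean of 3 libraries, error bars for the SD and points for single libraries. H2-Aa, H2-Ab1, H2-Eb1 and Cd74 were lower in KO-labelled than in WT libraries under both treatments, and Ciita was lower with LPS than with PBS under both labels.

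To learn whether the KO label went with a change in class II mRNA at rest, KO-labelled and WT libraries with PBS were compared. Class II mRNA was lower under the KO label: Cd74, H2-Eb1, H2-Ab1, H2-Aa, H2-DMb1 and Ciita all passed as lower, and H2-DMa did not pass. The differences ran from 1.16-fold (H2-DMb1) to 1.62-fold (Cd74). These 6 of 7 genes compare with 13.0% of all 12064 genes tested that were called lower, and 25.3% called in either direction. The median log2 fold change of the 7 genes was -0.51, against 0.000 over all genes. In bulk libraries such as these, fewer cells of a type and less RNA per cell cannot be told apart.

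Cd74, the invariant chain (gene 16149, chromosome 18 from 60803849 to 60812652), had 478, 434 and 430 CPM in the 3 WT PBS libraries and 250, 279 and 300 CPM in the 3 KO-labelled ones. Every KO-labelled library was thus below every WT library, and the log2 fold change was -0.69 ± 0.0754 (SE, adjusted p = 6.82e-06, edgeR's quasi-likelihood test). H2-Aa, the alpha chain of I-A, had 115, 131 and 114 CPM in WT and 79.2, 87.0 and 89.8 CPM in KO-labelled libraries, a log2 fold change of -0.49 ± 0.0791 (adjusted p = 0.000289). Its beta chain partner H2-Ab1 had 99.7, 101 and 97.3 CPM in WT and 63.2, 71.4 and 74.0 CPM in KO-labelled libraries, with a log2 fold change of -0.51 ± 0.0674 (adjusted p = 4.66e-05). Both chains of I-A were therefore lower, without overlap between the labels. H2-Eb1, the I-E beta chain that lacks its partner in this strain, had 61.0, 65.4 and 61.5 CPM in WT and 38.7, 44.4 and 42.8 CPM in KO-labelled libraries, a log2 fold change of -0.58 ± 0.0736 (adjusted p = 3.38e-05). For these 4 genes the direction and the call held under each alternative tried and without any 1 library.

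The H2-DM genes differed less. H2-DMa had 23.1, 23.2 and 23.7 CPM in WT PBS and 20.7, 21.8 and 21.2 CPM in KO-labelled PBS libraries, and although the libraries did not overlap, its log2 fold change of -0.14 did not pass (adjusted p = 0.155, 95% interval -0.28 to 0.01). KO-labelled libraries all below the WT libraries were common in this comparison, at 24.6% of all genes tested, and 48.1% did not overlap in either direction. H2-DMb1 had 30.5, 31.2 and 31.5 CPM in WT and 24.5, 27.7 and 27.99 CPM in KO-labelled libraries, a log2 fold change of -0.22 ± 0.0662 (adjusted p = 0.0243). This call was lost without WT PBS replicate 1, 2 or 3 (-0.20, -0.21 and -0.21), without KO PBS replicate 1 or 2 (-0.13 and -0.22), and with libraries scaled by their totals alone (-0.17). Ciita had 3.80, 4.04 and 5.004 CPM in WT and 2.03, 2.63 and 3.44 CPM in KO-labelled libraries. Its KO-labelled libraries lay below the WT libraries, with a log2 fold change of -0.67 ± 0.184 (adjusted p = 0.0149), but the call was lost in 3 of the fits that left a library out, namely WT PBS replicate 3 (-0.54) and KO PBS replicates 1 (-0.47) and 2 (-0.62).

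The same comparison was then made after LPS. The class II chain genes, Cd74 and now both H2-DM genes were lower under the KO label, whereas Ciita did not pass. These made 6 of 7 genes, against 19.3% of all genes called lower and 41.4% called in either direction. The median log2 fold change was -0.50 for the 7 genes and 0.001 for all genes. The 6 genes that passed also did so, all lower, under each alternative and without any 1 library, WT LPS replicate 1 included.

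Cd74 had 923, 818 and 807 CPM in WT LPS and 558, 607 and 619 CPM in KO-labelled LPS libraries, with a log2 fold change of -0.51 ± 0.0751 (adjusted p = 5.53e-05; -0.45 without WT LPS replicate 1). H2-Aa had 164, 187 and 184 CPM in WT and 127, 137 and 115 CPM in KO-labelled libraries, a log2 fold change of -0.50 ± 0.0795 (adjusted p = 0.000128) that became -0.55 without that library. For both genes all KO-labelled libraries were below all WT libraries. H2-Ab1 had 183, 184 and 182 CPM in WT and 150, 165 and 142 CPM in KO-labelled libraries, and its log2 fold change of -0.27 ± 0.0668 (adjusted p = 0.00443; -0.27 without WT LPS replicate 1) was the smallest of the genes that passed. H2-Eb1 had 93.6, 92.6 and 91.2 CPM in WT and 62.6, 69.1 and 56.2 CPM in KO-labelled libraries, a log2 fold change of -0.56 ± 0.0742 (adjusted p = 2.12e-05; -0.55 without that library). The beta chains of I-A and I-E were again free of overlap between the labels. Of all genes, 21.4% lay lower without overlap in this comparison and 45.6% in either direction.

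H2-DMb1 had 35.1, 35.4 and 35.8 CPM in WT LPS and 23.4, 26.3 and 23.6 CPM in KO-labelled LPS libraries. This wide separation gave a log2 fold change of -0.54 ± 0.0709 (adjusted p = 2.21e-05; -0.54 without WT LPS replicate 1). H2-DMa, whose product pairs with that of H2-DMb1, had 20.5, 20.7 and 19.97 CPM in WT and 15.1, 18.4 and 16.7 CPM in KO-labelled libraries, a log2 fold change of -0.29 ± 0.0763 (adjusted p = 0.00681; -0.28 without that library). Ciita had 1.62, 1.59 and 0.903 CPM in WT and 1.17, 1.35 and 1.49 CPM in KO-labelled libraries. These overlapped, and with so few counts the log2 fold change of -0.04 (adjusted p = 0.934) had a 95% interval from -0.68 to 0.61. It became 0.10 without WT LPS replicate 1, 0.09 without WT LPS replicate 2 and 0.05 without KO LPS replicate 1. A difference of the size seen for Ciita at rest lies at the edge of that interval and was not resolvable at this depth.

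**Figure D2:**
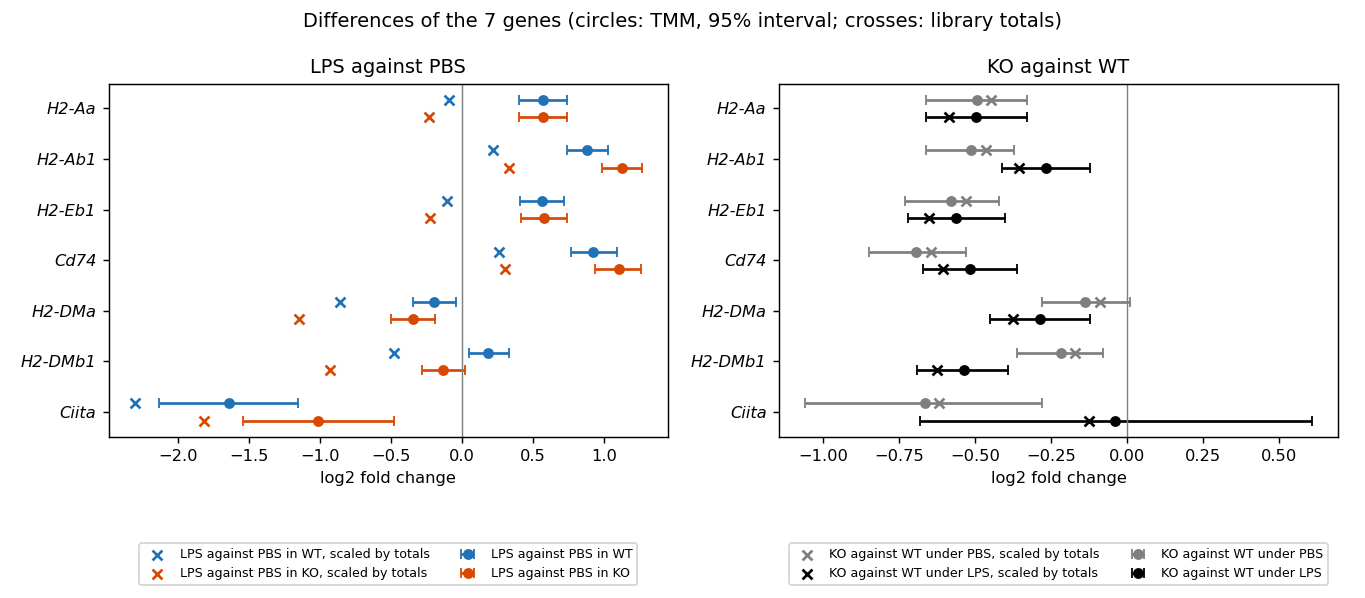
Log2 fold changes of the 7 genes, LPS against PBS on the left and KO against WT on the right, with circles for the TMM-scaled fit, bars for its 95% interval and crosses for libraries scaled by their totals alone. The values between the labels lie below 0 for the class II genes under both treatments and both scalings. Those of H2-DMa with PBS and of H2-DMb1 with PBS and totals alone did not pass. For LPS the crosses lie well to the left of the circles, and H2-Aa, H2-Eb1 and, in WT, H2-DMb1 change sign.

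To describe the response to LPS, PBS and LPS libraries were compared within each label. Ciita mRNA fell with LPS while H2-Ab1 and Cd74 mRNA rose, under both labels. Of the 7 genes, 5 passed as higher and 2 as lower in WT, and 4 as higher and 2 as lower in KO-labelled libraries. Calls were common in these comparisons, with 76.7% of all genes called in WT (36.5% higher, 40.2% lower) and 79.9% in KO-labelled libraries (38.8% higher, 41.1% lower), so that the number of calls among the 7 is close to the background. The median log2 fold change of the 7 genes was 0.56 in WT and 0.57 in KO-labelled libraries, against -0.048 and -0.041 over all genes. With libraries scaled by their totals alone those medians were -0.10 and -0.23, and 2 genes passed as higher and 3 as lower in WT, and 2 as higher and 5 as lower in KO-labelled libraries.

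The directions depended in part on how libraries were scaled. The TMM factors were 1.26 to 1.31 in PBS and 0.744 to 0.808 in LPS libraries, and scaling by totals alone moved the median of all genes to -0.711 in WT and -0.841 in KO-labelled libraries. Changes with LPS are therefore relative to the bulk of genes. Ciita (lower) and H2-DMa (lower), and H2-Ab1 and Cd74 (higher), kept their direction under each scaling. H2-Aa and H2-Eb1 did not, and H2-DMb1 did not in WT.

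Ciita went from 3.80, 4.04 and 5.004 CPM to 1.62, 1.59 and 0.903 CPM with LPS in WT, a fall of 3.12-fold. Its log2 fold change was -1.64 ± 0.229 (adjusted p = 5.66e-06; -1.78 without WT LPS replicate 1) in WT, and -1.01 ± 0.250 (adjusted p = 0.00144) in KO-labelled libraries, where it went from 2.03, 2.63 and 3.44 CPM to 1.17, 1.35 and 1.49 CPM. With totals alone the values were -2.30 in WT and -1.81 in KO-labelled libraries. All LPS libraries were below all PBS libraries under either label, as for 41.1% of all genes in WT and 41.6% in KO-labelled libraries. Ciita is transcribed from several promoters that serve different cell types, and counts per gene add these up.

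Cd74 rose from 430 to 478 CPM with PBS to 807 to 923 CPM with LPS in WT, with a log2 fold change of 0.93 ± 0.0754 (adjusted p = 6.76e-09; 0.86 without WT LPS replicate 1). In KO-labelled libraries it rose from 250 to 300 CPM to 558 to 619 CPM, a log2 fold change of 1.10 ± 0.0760 (adjusted p = 6.05e-10). H2-Ab1 rose from 97.3 to 101 CPM to 182 to 184 CPM in WT (0.88 ± 0.0670, adjusted p = 2.58e-09; 0.88 without that library). The corresponding rise of H2-Ab1 under the KO label was from 63.2 to 74.0 CPM to 142 to 165 CPM (1.13 ± 0.0680, adjusted p = 9.53e-11). The PBS and LPS libraries of both genes were free of overlap, as were 78.2% of all genes in WT (37.1% higher) and 81.3% in KO-labelled libraries (39.7% higher). With totals alone the rises shrank to 0.26 and 0.22 in WT and to 0.30 and 0.33 in KO-labelled libraries, in the order Cd74 and H2-Ab1, and still passed.

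H2-Aa rose by a log2 fold change of 0.57 ± 0.0788 in WT (adjusted p = 4.94e-06; 0.63 without WT LPS replicate 1) and of 0.57 ± 0.0799 in KO-labelled libraries (adjusted p = 5.25e-06). With totals alone these values were -0.09 (adjusted p = 0.306) and -0.23 (adjusted p = 0.0166). H2-Eb1 followed the same course, with 0.56 ± 0.0728 in WT (adjusted p = 2.31e-06; 0.55 without that library) and 0.58 ± 0.0750 in KO-labelled libraries (adjusted p = 2.10e-06). Its values with totals alone were -0.10 (adjusted p = 0.211) and -0.22 (adjusted p = 0.0121). Whether H2-Aa and H2-Eb1 mRNA rose or fell with LPS thus turned on the scaling, and only the rise relative to the bulk of genes is stated here.

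With TMM scaling, the H2-DM pair differed less between PBS and LPS than the chain genes. H2-DMa was lower, by -0.19 ± 0.0707 in WT (adjusted p = 0.0198; -0.20 without WT LPS replicate 1) and by -0.34 ± 0.0732 in KO-labelled libraries (adjusted p = 0.00042). With upper-quartile scaling these values were -0.50 and -0.70, and with totals alone -0.86 and -1.14. The WT call was lost with RLE scaling and with DESeq2 (both -0.15), and without WT PBS replicate 1 (-0.18), WT PBS replicate 3 (-0.18) or WT LPS replicate 3 (-0.18). H2-DMb1 passed as higher in WT (0.19 ± 0.0671, adjusted p = 0.0179; 0.19 without WT LPS replicate 1), but was at -0.12 with upper-quartile scaling, at -0.47 with totals alone, and did not pass without a filter on low counts (0.15). In KO-labelled libraries H2-DMb1 did not pass (-0.13, adjusted p = 0.0999, 95% interval -0.28 to 0.02) and its PBS and LPS libraries overlapped. It passed there as lower with upper-quartile scaling (-0.49), totals alone (-0.93), no filter (-0.17), a filter of at least 10 counts in every library (-0.18), and without KO PBS replicate 1 (-0.20) or KO LPS replicate 2 (-0.18). H2-DMb1 has a close paralog, H2-DMb2, between which a counter may have to divide reads. H2-DMb2 held 0 to 16.3 counts per library. The changes made by rounding came to 0.032% of the H2-DMb1 counts summed over the 12 libraries.

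Ratios between genes of 1 library do not depend on its scaling. The ratio of H2-Eb1 to H2-Aa counts was 0.522 ± 0.0217 (SD, n = 3) in WT PBS, 0.520 ± 0.0431 in WT LPS, 0.492 ± 0.0174 in KO-labelled PBS and 0.494 ± 0.00816 in KO-labelled LPS libraries, and the ranges of neighbouring values overlapped. H2-Ab1 to H2-Aa went from 0.829 ± 0.0539 with PBS to 1.03 ± 0.0738 with LPS in WT, and from 0.814 ± 0.0142 to 1.20 ± 0.0224 in KO-labelled libraries. The beta chain thus gained on the alpha chain of I-A with LPS, with every LPS library above every PBS library, and under LPS the KO-labelled libraries (1.18 to 1.23) lay above the WT libraries (0.985 to 1.11). Cd74 to H2-Aa went from 3.74 ± 0.423 to 4.79 ± 0.717 in WT and from 3.24 ± 0.0935 to 4.72 ± 0.556 in KO-labelled libraries. WT LPS replicate 1 was the highest of its group in these 3 ratios, at 0.570 for H2-Eb1, 1.11 for H2-Ab1 and 5.62 for Cd74, against 0.495 to 0.496, 0.985 to 0.988 and 4.38 in the other WT LPS libraries.

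H2-DMa lost ground to the chains with LPS, from 0.235 ± 0.00764 to 0.111 ± 0.00151 of the H2-Ab1 count in WT and from 0.306 ± 0.0201 to 0.110 ± 0.00900 in KO-labelled libraries. Ciita went from 0.0359 ± 0.00701 to 0.00776 ± 0.00257 of the H2-Aa count in WT and from 0.0314 ± 0.00640 to 0.0106 ± 0.00202 in KO-labelled libraries. The LPS libraries lay below the PBS libraries in each case. The products of H2-DMa and H2-DMb1 work as a pair, but their mRNAs did not keep a fixed proportion. H2-DMb1 to H2-DMa was 1.33 ± 0.0123 in WT PBS and 1.74 ± 0.0462 in WT LPS, and 1.26 ± 0.0675 in KO-labelled PBS and 1.46 ± 0.0789 in KO-labelled LPS libraries. These ratios were not tested, and groups that do not overlap are described as such only.

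**Figure D3:**
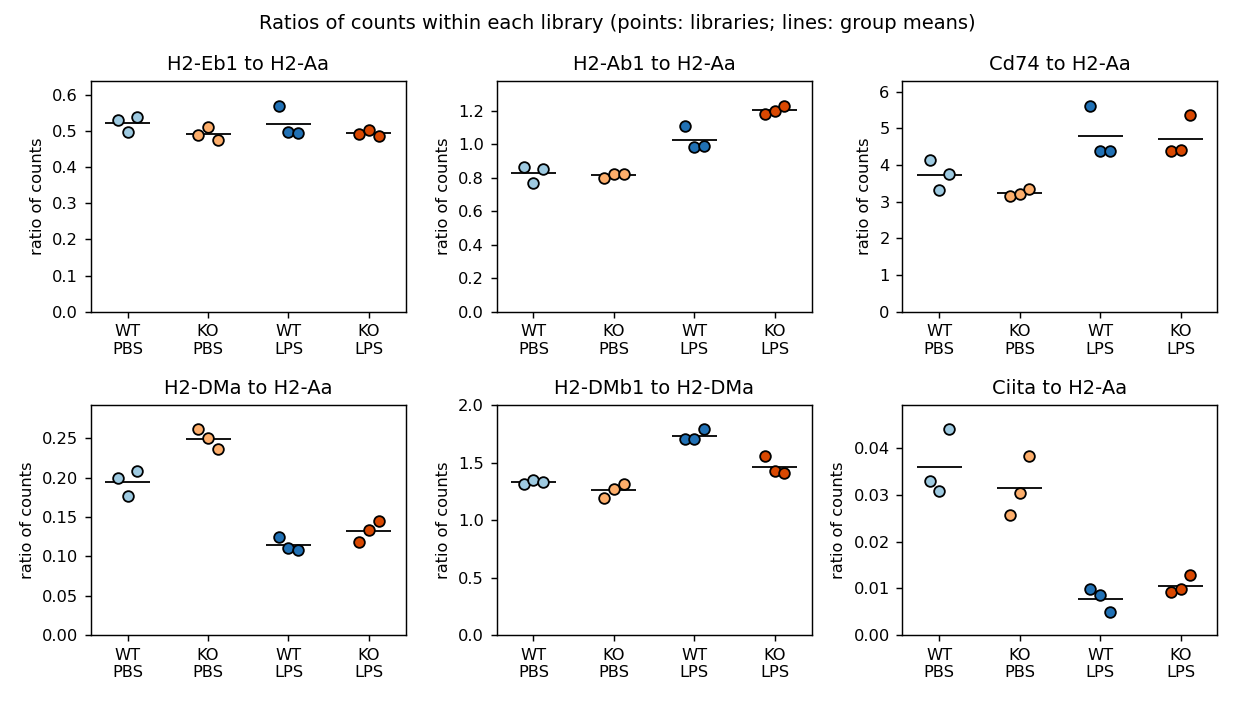
Ratio of the counts of 2 genes within each library, with points for the 12 libraries and lines for the group means, on axes that start at 0. H2-Eb1 stayed near 0.5 of H2-Aa in all groups, H2-Ab1 to H2-Aa rose with LPS, and the ratios of H2-DMa and Ciita to H2-Aa were lower with LPS.

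Whether the response to LPS differed between the labels was tested as an interaction, in which 18.0% of all genes were called (8.26% lower, 9.78% higher). Only H2-DMb1 among the 7 genes passed. It was higher with LPS in WT and at -0.13 in KO-labelled libraries, and the difference was -0.32 ± 0.0971 (adjusted p = 0.0325, 95% interval -0.52 to -0.11). The adjusted p lay between 0.00367 and 0.0428 under the other scalings, filters and tools tried, and was 0.0246 without WT LPS replicate 1. It missed the threshold without WT PBS replicate 1, 2 or 3 (-0.34, -0.32 and -0.33), WT LPS replicate 3 (-0.31), KO PBS replicate 2 or 3 (-0.32 and -0.31) or KO LPS replicate 1 or 3 (both -0.29), with adjusted p up to 0.0871.

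For H2-Aa the interaction was -0.0015 (adjusted p = 0.996, 95% interval -0.24 to 0.24) and for H2-Eb1 it was 0.015 (adjusted p = 0.949, 95% interval -0.21 to 0.24). Differences between the labels larger than these bounds in the LPS response of H2-Aa and H2-Eb1 lie outside the intervals. H2-Ab1 (0.25, adjusted p = 0.0847, 95% interval 0.05 to 0.45), Cd74 (0.18, adjusted p = 0.279), H2-DMa (-0.15, adjusted p = 0.358) and Ciita (0.63, adjusted p = 0.255, 95% interval -0.13 to 1.38) did not pass. H2-Ab1 passed without KO LPS replicate 3 (0.30, adjusted p = 0.0451). Without WT LPS replicate 1 the 6 values were -0.0573 for H2-Aa, 0.0245 for H2-Eb1, 0.25 for H2-Ab1, 0.24 for Cd74, -0.14 for H2-DMa and 0.76 for Ciita, and none passed (adjusted p from 0.0568 to 0.894). The larger difference of Ciita between the labels at rest than after LPS was therefore not established by a test.

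Across the 12 libraries, log2 CPM of H2-Aa followed that of H2-Eb1 (Pearson r = 0.99) and H2-Ab1 followed Cd74 (0.98). Ciita went the other way, with r = -0.49 to H2-Aa, -0.68 to H2-Ab1 and -0.57 to Cd74, and was most like H2-DMa (0.77). These values describe 12 libraries in 4 groups, share their scaling and carry no test. Among 9313 genes of at least 5 CPM in their highest group, the 5 most like Ciita were Tnfrsf26 (0.965), Mettl1 (0.962), Eps8 (0.952), Afg3l2 (0.950) and Pdgfa (0.949). The 5 most like the mean of H2-Aa, H2-Ab1, H2-Eb1 and Cd74 were Eef1g (0.990), Eif5a (0.985), Il3ra (0.985), Bmp2 (0.983) and Evl (0.982). Of the 9313 genes, 202 were above 0.9 for Ciita and 277 for the class II mean.

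The other class II genes gave no basis for comparison. H2-Oa and H2-Ob, which encode the inhibitor of H2-DM, held at most 12 and 3 counts in a library, and H2-Eb2 held at most 4. Of these 5 genes, H2-DMb2 and H2-Ea included, only H2-DMb2 was tested, and it passed in 0 of the 5 comparisons.

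The subunits that hold CIITA at the promoter (Rfx5, Rfxap, Rfxank, Nfya, Nfyb, Nfyc and Creb1) were compared between the labels next. With PBS, 2 of 7 were higher and 0 lower, and with LPS 2 were higher and 1 lower. Among all genes tested, 12.3% were higher and 13.0% lower with PBS, and 22.1% were higher and 19.3% lower with LPS. Lists this short differ from those shares by a few genes, so the counts here and in the lists that follow are given as descriptions only. Creb1, which binds within the X region, was higher at 0.37 (adjusted p = 0.00249) with PBS and 0.50 (adjusted p = 0.000159) with LPS. Nfyb, a subunit of NF-Y, was higher at 0.29 (adjusted p = 0.0478) and 0.54 (adjusted p = 0.000508), although the first missed the threshold with upper-quartile scaling, with DESeq2 and with the replicate number as a block. Rfxank, an RFX subunit, was lower with LPS (-0.38, adjusted p = 0.0178). The response of Rfxank to LPS also differed between the labels by -0.53 (adjusted p = 0.0212). With LPS in WT, 2 of 7 subunits were higher and 3 lower, with Rfxap at -1.17 (adjusted p = 2.72e-07) and Rfx5 at 0.86 (adjusted p = 2.66e-06), which was 0.19 and did not pass with totals alone. In KO-labelled libraries 3 were higher and 3 lower. With totals alone 0 of 7 were higher and 5 lower under either label: Creb1 (0.19) was then at -0.61 in KO-labelled libraries, Rfx5 (0.83) at 0.02 and Nfyb (0.89) at 0.09, and Nfyb (0.64) at -0.02 in WT.

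Of 7 genes of endosomal processing, 2 were lower and 0 higher under the KO label with PBS. Ctsl, a protease of lysosomes, was at -0.90 (adjusted p = 5.57e-07), with 3262, 3414 and 3277 CPM in WT and 1777, 1800 and 1757 CPM in KO-labelled libraries. Ifi30 (GILT), which reduces disulphide bonds of ingested proteins, was at -0.46 (adjusted p = 5.17e-05). With LPS, 5 were lower and 2 higher: Ifi30 (-0.88, adjusted p = 3.75e-08), Ctsl (-0.82, adjusted p = 6.85e-07), Lgmn (-0.42), Ctsd (-0.35) and Ctsb (-0.26) were lower, and Sppl2a (0.50, adjusted p = 4.27e-06), which cleaves what remains of the invariant chain in the membrane, and Ctss (0.23, adjusted p = 0.0269), the main protease that trims the invariant chain to CLIP, were higher. Ctss did not pass with upper-quartile scaling (0.16) or totals alone (0.14). The difference in LPS response passed for Ifi30 (-0.42), Lgmn (-0.44), Ctsd (-0.36) and Sppl2a (0.45). The LPS response itself gave 3 higher and 3 lower of the 7 in WT, and 2 higher and 3 lower in KO-labelled libraries, with Sppl2a at 2.11 and 2.57. Upper-quartile scaling gave 1 higher and 5 lower, and totals alone 1 higher and 6 lower, under either label. With totals alone Ctss (-0.40) and Ctsb (-0.55), both among the higher genes in WT, were lower there, and so was Ctss in KO-labelled libraries (-0.50).

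A further 3 genes act on class II at the surface. March1, the ubiquitin ligase that removes class II from the surface of antigen-presenting cells, rose with LPS by 2.10 in WT and 1.63 in KO-labelled libraries, a difference of -0.47 (adjusted p = 0.00169). Cd83, which opposes March1, rose by 3.02 and 2.99, and the related ligase March8 fell by 0.87 and 0.95. Under the KO label with PBS, 1 of 3 was higher (March1, 0.36, adjusted p = 0.000687) and 1 lower (Cd83, -0.28, adjusted p = 0.00976). With LPS, 0 were higher and Cd83 was lower (-0.31, adjusted p = 0.00136). March1 (-0.11) and March8 (-0.16) did not pass there, but did as lower genes with upper-quartile scaling (-0.17 and -0.23) and with totals alone (-0.20 and -0.25).

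**Figure D4:**
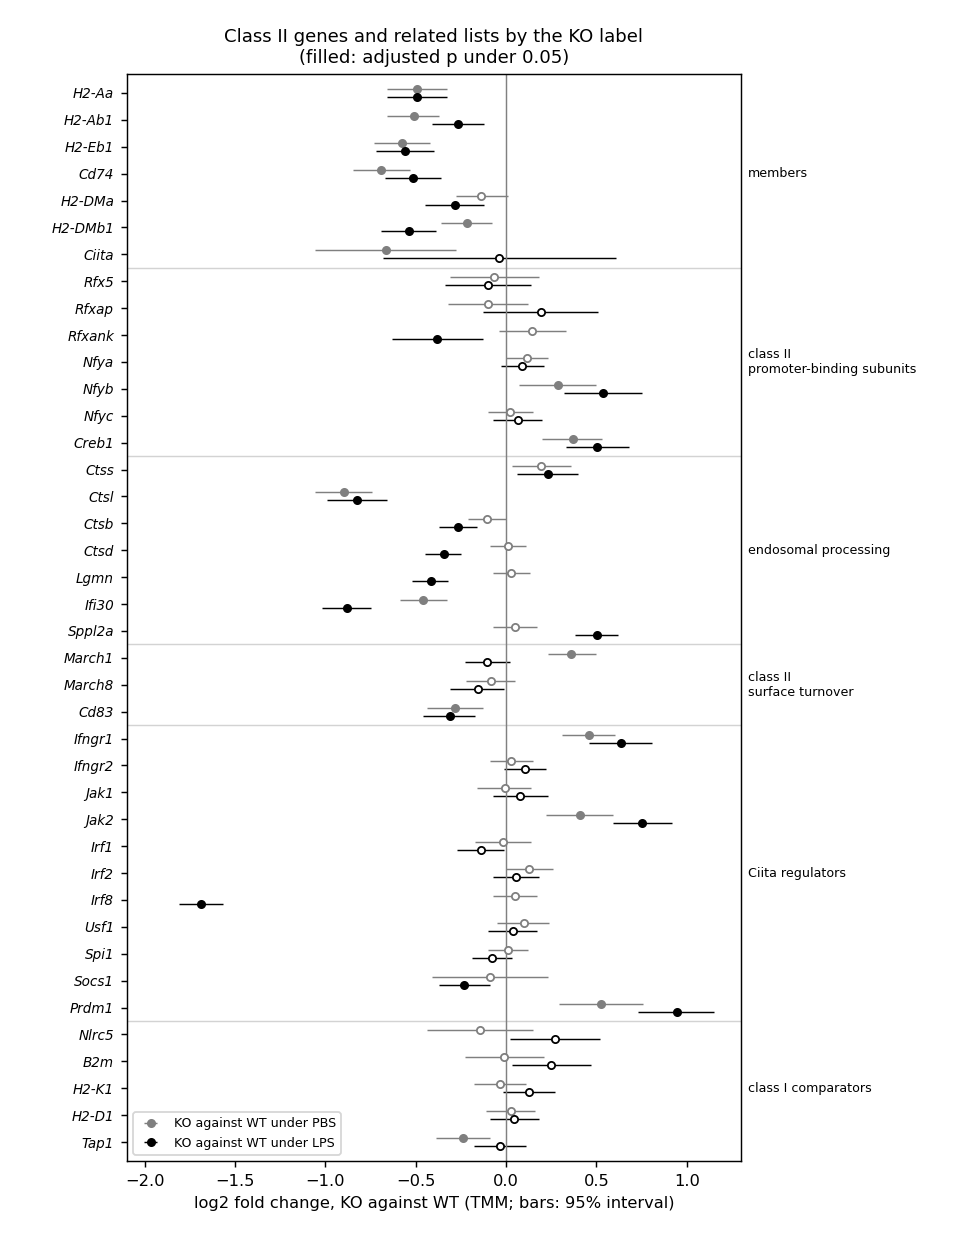
Log2 fold change of KO-labelled against WT libraries for the 7 genes and the related lists (1 list gene is not shown), with PBS in grey and LPS in black, bars for the 95% interval and filled points for adjusted p under 0.05. The class II genes and Ctsl, Ifi30 and Cd83 lie below 0 under both treatments, Creb1, Nfyb, Ifngr1, Jak2 and Prdm1 above 0, and Irf8 lies at -1.69 with LPS.

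The 13 genes known to act on Ciita transcription were also read. Ifng itself held 0 counts in every PBS library, 3, 0 and 12 counts in WT LPS and 2, 1 and 0 counts in KO-labelled LPS libraries, and was not tested. Of the 12 tested, 11 were higher and 1 lower with LPS under either label, although Irf8 in KO-labelled libraries (0.47) was at -0.33 with totals alone. Irf1, which carries the interferon signal to Ciita, rose by 4.44 in WT and by 4.32 in KO-labelled libraries, whereas Ifngr1, a chain of the interferon-gamma receptor, fell by 2.20 and 2.02. Socs1, an inhibitor of JAK signalling, rose by 6.67 and 6.53, and Prdm1 (BLIMP1), a repressor of Ciita, by 1.70 and 2.12.

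Under the KO label, 3 of these 12 were higher and 1 lower with PBS, and 4 were higher and 2 lower with LPS. Prdm1 was higher at 0.53 (adjusted p = 0.00262) and 0.94 (adjusted p = 2.17e-06), Jak2 at 0.41 and 0.75, and Ifngr1 at 0.46 and 0.63. Irf8, a myeloid interferon regulatory factor, had 656, 705 and 639 CPM in WT LPS and 201, 203 and 217 CPM in KO-labelled LPS libraries. That was a log2 fold change of -1.69 (adjusted p = 5.87e-12), against 0.05 (adjusted p = 0.566) with PBS, and the LPS response of Irf8 differed by -1.74 (adjusted p = 1.38e-09). Socs1 was lower with LPS (-0.23, adjusted p = 0.0113), a call lost without KO LPS replicate 3 (-0.17). Over the alternatives 1 to 4 genes of this list were lower with LPS, with 4 under totals alone.

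MHC class I was read for contrast. Nlrc5, the class I counterpart of Ciita, rose with LPS by 4.76 in WT and 5.17 in KO-labelled libraries, and all 5 class I genes (Nlrc5, B2m, H2-K1, H2-D1 and Tap1) were higher under both labels, H2-D1 in KO-labelled libraries with a value of 0.03 that did not pass under totals alone. Under the KO label, 0 of 5 were higher and 1 lower with PBS (Tap1, -0.24, adjusted p = 0.0237), and 0 of 5 passed with LPS. Nlrc5 and B2m were then at 0.27 (adjusted p = 0.0839) and 0.25 (adjusted p = 0.0693), and both passed as higher with the replicate number as a block (adjusted p = 0.0302 and 0.0252).

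Without WT LPS replicate 1, some calls among these related genes changed and no called gene changed direction. Under the KO label with PBS, Ctss (0.19) then passed as higher and Ctsb (-0.10) as lower. Under the KO label with LPS, Ctss (0.12) lost its call, while March1 (-0.15), Irf1 (-0.18) and Nlrc5 (0.40) gained one. Ctsl passed as higher with LPS in WT (0.18) and in KO-labelled libraries (0.15), and the LPS response differed between the labels for Nlrc5 (0.55), Tap1 (0.27) and Prdm1 (0.52). Irf8 was at -1.70 under the KO label with LPS.

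Other libraries also decided some of these calls. Irf2 passed as higher under the KO label with PBS when WT PBS replicate 1 was left out (0.23). With PBS, Cd83 missed the threshold without WT PBS replicate 3 (-0.23) or KO PBS replicate 1 (-0.22), Tap1 without WT PBS replicate 1 (-0.14) or KO PBS replicates 1 (-0.17) and 2 (-0.22), and Nfyb in 8 of the 12 fits that left out a library (0.27 to 0.34). With LPS, Rfxank missed it without replicate 3 of WT LPS or KO LPS (both -0.34), and Ctss without KO LPS replicates 1 (0.22) or 2 (0.20). B2m passed as higher when replicate 2 of WT LPS (0.34) or replicate 3 of KO LPS (0.31) was left out, Nlrc5 without KO LPS replicate 2 (0.37), and March8 as lower without KO LPS replicate 1 (-0.22).

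Since B cells and dendritic cells hold far more class II than macrophages, their markers were read beside these results. Of 8 B cell genes, Ms4a1, Pax5 and Cd79a held at most 6 counts in any library and Cd79b at most 45. The summed B cell level was 111 to 116 CPM in WT PBS, 102 to 104 in KO-labelled PBS, 74.2 to 90.6 in WT LPS and 47.9 to 53.5 CPM in KO-labelled LPS libraries. Nearly all of it was Cd22, at 109 to 114, 100.5 to 102.5, 73.3 to 89.8 and 47.4 to 53.0 CPM in the same order. Cd22 differed between the labels by -0.14 with PBS (adjusted p = 0.167, and 0.0284 without WT LPS replicate 1) and by -0.67 with LPS (adjusted p = 4.92e-06). The B cell sum thus lay lower in KO-labelled libraries under both treatments, as the class II genes did, and lower with LPS than with PBS, unlike H2-Ab1 and Cd74. The 8 dendritic cell genes summed to 2.75 to 3.29 CPM in WT PBS, 1.79 to 2.16 in KO-labelled PBS, 11.9 to 13.7 in WT LPS and 13.5 to 15.3 CPM in KO-labelled LPS libraries, with Flt3 at no more than 5.6 and Clec9a at no more than 10 counts. With PBS, 0 of the 5 dendritic genes tested were higher and 3 lower under the KO label (Ccr7, Zbtb46 and Batf3), and with LPS 0 of 5 passed. The PBS group means of those 3 lay below 1 CPM, and over the alternatives 0 to 3 of the list were lower, with 0 in the fit without WT PBS replicate 1. Most of the LPS sums was Ccr7, at means of 8.82 and 10.1 CPM in WT and KO-labelled libraries.

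The sums of other marker lists also differed between the groups, often through a single gene. The sum of the 8 general macrophage markers was mostly Lyz2, which did not pass between the labels. Of these 8, 1 was higher (Cd14, 0.20, adjusted p = 0.0378, lost with upper-quartile scaling and with the replicate block) and 1 lower (Adgre1, -0.33, adjusted p = 0.000217) under the KO label with PBS. The Cd14 call was also lost without WT PBS replicate 1 (0.21) or 3 (0.18), or KO PBS replicate 2 (0.22) or 3 (0.17). With LPS, Cd14 was higher (means of 735 against 459.9 CPM), and Mertk (98.3 against 233), Csf1r (295 against 425) and Cd68 (3201 against 3696) were lower under the KO label. Resident macrophage markers summed to at least 13.4 CPM (median 14.4) in WT PBS and at most 12.3 CPM in KO-labelled PBS, and to 23.6 to 24.6 and 13.7 to 15.6 CPM with LPS. Monocyte-derived macrophage markers summed to 957 to 1150 and 836 to 908 CPM with PBS, and to 1260 to 2220 and 1200 to 1520 CPM with LPS. Under the KO label, 1 of the 5 resident genes tested was higher (Icam2, 0.50, adjusted p = 0.0187) and 3 lower with PBS, and 0 were higher and 3 lower with LPS. Over the alternatives those with PBS were 0 to 1 higher and 1 to 4 lower, with Icam2 missing the threshold without WT PBS replicate 2 (0.41) or 3 (0.46) or KO PBS replicate 2 (0.50), the last of which left 1 lower. Most of the monocyte-derived sum was Fn1, whose PBS means of 949 CPM (WT) and 704 CPM (KO label) did not pass as different (adjusted p = 0.172, but 0.0323 without WT LPS replicate 1). Of the 6 genes on that list with PBS, 1 was higher (Chil3, 0.81, adjusted p = 1.97e-05) and 1 lower (Retnla), with a median of 0.17. With LPS, 2 were higher and 1 lower, and Ly6c2, a marker of inflammatory monocytes, had means of 91.2 CPM under the KO label against 29.3 CPM in WT (1.64, adjusted p = 6.92e-08), with a difference in LPS response of 1.33 (adjusted p = 0.000153). Among the T cell genes, Cd3e was at 0 in every PBS library, and the sums of 0.572 to 1.02 CPM with PBS and 14.9 to 24.1 CPM with LPS came mainly from Lck and Cd8b1 with LPS. Neutrophil markers, 5 of 6 measured, summed to 103 to 106 CPM in WT PBS and 150 to 154 CPM in KO-labelled PBS, and to 86.2 to 88.6 and 112 to 121 CPM with LPS. Most of that was Mmp8, with PBS means of 99.99 CPM (WT) and 147 CPM (KO label), whereas S100a8 differed with PBS by 0.22 (adjusted p = 0.462) and S100a9 and Retnlg were close to 0 throughout. With LPS both genes tested, Mmp8 and S100a8, were higher under the KO label, S100a8 at 0.49 (adjusted p = 0.049). The LPS libraries of S100a8 overlapped between the labels, at 7.58 to 9.59 CPM in WT and 7.90 to 15.2 CPM in KO-labelled ones. The S100a8 call did not survive the replicate block, scaling by totals or upper-quartile scaling. It was also lost without WT PBS replicate 1 or 3, WT LPS replicate 1 or 2, or any 1 KO PBS replicate. The same held without KO LPS replicate 1 (0.29, adjusted p = 0.248) or 2 (0.43).

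Skeletal muscle genes summed to 17.8 to 35.6 CPM in WT libraries, to 0.354 to 20.4 CPM in KO-labelled PBS libraries and to 0.428 to 0.684 CPM in KO-labelled LPS libraries, and mesothelial genes to 9.08 to 11.2 CPM in WT and 4.85 to 9.02 CPM in KO-labelled libraries. The part of these cell populations in the class II differences was not tested.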

How the data were processed

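mRNA was sequenced in 12 mouse macrophage libraries (single-end reads of 50 bases, BGISEQ-500). Each deposited table holds expected counts, which are estimated per gene and not scaled between libraries. The submitters' processing notes name Bowtie2, RSEM 1.3.1 and build GRCm38.p6, whereas the methods name STAR and HTSeq and no build. Likewise the irritant is starch broth in the series record and thioglycollate in the methods. Between 24.6% and 26.9% of values in a library carried decimals, so all were rounded before testing.

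Genes were filtered with filterByExpr, which left 12064, and scaled with TMM. The 12 libraries entered 1 robust quasi-likelihood model (edgeR 4.0.16, R 4.3.3) with a mean for each group. There were 5 contrasts, tested two-sided with Benjamini-Hochberg adjustment over all genes and a threshold of 0.05. Replicates varied by a biological coefficient of 6.99%. The floor of 3 counts equalled 0.105 to 0.187 CPM, which covers counting error only, since reads carried no molecular identifiers. Intervals (95%) come from the fit.

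The 7 genes, the pathway lists and the marker lists (macrophages, resident and monocyte-derived macrophages, B cells, dendritic cells, T cells, neutrophils, skeletal muscle and mesothelium) were chosen with earlier results of these data known. Named are the 7 genes, list members with counts for the whole list, Ythdf1, and the 5 genes most like Ciita and most like the class II mean by Pearson r. Alternatives were RLE and upper-quartile scaling, totals alone, no filter, a minimum of 10 counts per library, DESeq2 1.42.0, only the libraries compared, unrounded counts, a replicate block and leaving out each library. Positions and promoters come from RefSeq, GRCm38.p6, and lengths from GENCODE. Of 16920 gene numbers, 16803 (99.3%) matched. Values of 2 list genes are not reported here, although they enter the list counts and sums. The pipeline was tested on simulated data.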

Additional observations from a re-analysis of the deposited data

Results flagged for a closer look

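The response of H2-DMb1, the beta chain of H2-DM, to LPS differed between the labels by -0.32 on the log2 scale (adjusted p = 0.0325, edgeR's interaction test), with 0.19 in WT and -0.13 in KO-labelled libraries. The WT libraries went from 30.5, 31.2 and 31.5 CPM to 35.1, 35.4 and 35.8 CPM, and the KO-labelled libraries from 24.5, 27.7 and 27.99 CPM to 23.4, 26.3 and 23.6 CPM. It was singled out because the difference itself passed its test, at a share of 18.0% called among all genes. The call was lost in 8 of the 12 fits that left out a library, with adjusted p up to 0.0871 (without KO LPS replicate 1), and the WT value of 0.19 was -0.12 with upper-quartile scaling and -0.47 with totals alone.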

How the results depend on the processing

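The KO-label differences of H2-Aa, H2-Ab1, H2-Eb1 and Cd74 kept direction and call under each alternative and without any 1 library, and so did Ciita with LPS (lower under both labels). With libraries left out, the values of the 7 genes were counted for each gene, comparison and fit. Of these values 387 kept their direction and side of the threshold, 19 lost a call, 3 gained one and 11 changed sign, whatever their call. The other alternatives gave 290, 4, 4 and 10. With LPS, totals alone turned H2-Aa (-0.0913 in WT, -0.23 in KO), H2-Eb1 (-0.10, -0.22) and H2-DMb1 in WT (-0.47), and upper-quartile scaling turned H2-DMb1 in WT (-0.12). In the interaction, where neither passed, H2-Eb1 was at -0.0038 with RLE, -0.0299 with upper-quartile scaling, -0.12 with totals and -0.0037 with DESeq2, and ranged from -0.0711 to 0.0886 with libraries left out, H2-Aa from -0.0841 to 0.0624. Ciita between the labels with LPS ranged from -0.27 to 0.098. The cause was not tested.

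Genes called under the KO label with PBS numbered 3058, but 4629 in a fit to only the libraries compared and 1992 to 3896 with libraries left out (lowest without KO PBS replicate 1). Between 0 and 1 of the 7 genes passed in the interaction with libraries left out. Totals alone moved the share of higher calls from 47.6% to 21.2% (LPS in WT), 48.6% to 20.8% (LPS in KO), 48.6% to 61.6% (KO label, PBS), 53.4% to 37.9% (KO label, LPS) and 54.2% to 24.4% (interaction), and upper-quartile scaling to 32.5%, 33.8%, 42.2%, 41.6% and 43.1%. The samples share only a replicate number, with 1 of 12 same-numbered pairs correlated above 0.1 (-0.076 to 0.127). With the replicate block 9267, 9631, 2969, 5030 and 2132 genes were called in these comparisons, against 9254, 9635, 3058, 4990 and 2176 without it, and no call among the 7 genes changed. Of the related genes other than cell markers, Nfyb (KO label, PBS) and Ctsb (LPS in WT) lost a call with the block, and Nlrc5 and B2m (KO label, LPS) gained one. Depth limits Ciita, with 16 to 140 counts per library.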
